A study of Mus musculus with 8 samples.

Results

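Translation initiation factors are the proteins that bring the ribosome, the initiator tRNA and an mRNA together at a start codon, and 49 of their genes were followed here in MC38 cells, a murine colon adenocarcinoma line. The genes were all those whose symbol begins with Eif1 to Eif6 and that had a mean normalized count of at least 10 in both deposited tables. Of 59 such rows listed in both tables, 6 pseudogenes, the 3 genes Eif2ak2, Eif2d and Eif4ebp1 and the low gene Eif4ebp3 were left out, and the tables share 20432 genes in all. The choice used the gene name and the mean level, and it was made with earlier results of these data known. Of the 3 genes left out by name, Eif2ak2 was called lower in DENR KO cells with IFNγ and is described with the neighbouring genes.

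The 8 samples formed 4 groups of 2. Wild-type control cells and DENR KO cells were each taken untreated or after 20 ng/ml IFNγ for 4 h, and all are the MC38 line. Polyadenylated RNA was sequenced, and each table gives the reads of a gene divided by 1 size factor per sample, called a normalized count here. The labels number the DENR KO samples without saying whether they come from separate guide RNAs, clones or cultures, so the spread between samples may in part be technical.

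DENR is a factor that, with its partner MCTS1, removes tRNA from the small ribosomal subunit and lets it initiate again after a short upstream reading frame. In canonical initiation, eIF2 carries the initiator tRNA to the small subunit and is recharged with GTP by eIF2B, while eIF1 and eIF1A guard the choice of start codon. The large eIF3 complex holds the small subunit, and the eIF4 factors bind the cap and unwind the mRNA. Kinases that phosphorylate eIF2 slow this cycle in the integrated stress response, and eIF4E-binding proteins keep the cap-binding protein away from its scaffold.

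Reads on genes ranged from 17369020 to 18403790 per sample. Denr mRNA itself, at 1448 and 1297 normalized counts in untreated controls, was 943 and 916 in untreated DENR KO cells. With IFNγ it was 1438 and 1401 in controls and 946 and 957 in DENR KO cells. It was thus at 67.7% of control untreated (log2 fold change -0.56 ± 0.08, SE, n = 2 per group; limma, adjusted p = 0.00011) and at 67.0% with IFNγ (-0.58 ± 0.07; limma, adjusted p = 8.2e-06). Of 8 epithelial markers, 1 had a mean of at least 10 and Epcam, Cdx2 and Krt20 were not listed, while the summed counts of 5 mesenchymal markers, Vim and Fn1 the highest, lay between 114377 and 146271. The epithelial list summed to at most 24.6, so the markers of the cell type named by the line were absent or low in every sample. Of 7 leukocyte markers only Cd68 reached a mean of 10, and the list summed to at most 79.6.

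Many mRNAs of the translation machinery begin with a C followed by a run of pyrimidines, the feature through which mTOR controls their translation. The member starts of this kind are shown so that the feature can be read in the letters. Of 49 members, 40 had an entry among the RefSeq promoter windows of 300 bases on GRCm38.p6, 250 before and 50 after an annotated start. Members with no entry are Eif1a, Eif2b3, Eif3e, Eif3h, Eif3i, Eif3j2, Eif4e3, Eif4g2 and Eif6. A C at the annotated start followed by at least 4 pyrimidines, read on the strand of the gene, was found in 2 of the 53 member windows (3.77%) and in 823 of all 32851 windows (2.51%). Capitals mark the pyrimidine run from the start onwards.
Eif3f, chr7:108934405-108934432, plus strand: tctaggctctCTCTCTTTCTCggcaaga
Eif2s3x, chrX:94212634-94212661, minus strand: gagcattttcCTTTTCTCTCCgagcaag
The run is 11 bases long in each. RefSeq starts are annotated and were not measured here. For Eif2s3x, the deposited gene coordinates reach 94212862, which lies upstream of this RefSeq start on the minus strand.

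The level of the factors set the scale for every comparison. The median member had 2998 normalized counts over the 8 samples, against 469 over all 13998 genes with a mean of at least 10. Levels between genes are compared per kb of the gene length in the tables, which joins all exons of a gene, and again per kb of the longest basic protein-coding transcript of GENCODE M21, which is shorter for most members. Eif5a, whose product helps the ribosome through difficult peptide bonds, had the highest level at 8279 normalized counts per kb (13694 by the transcript). Eif4e3, a cap-binding paralog of eIF4E, had the lowest at 38.3 by either length. Eif1, Eif3h and Eif4a1, the RNA helicase of the cap complex, followed Eif5a with 3996, 3949 and 3941 per kb by gene length, and their ranges over the 8 samples overlapped. By transcript length Eif4a1 stood at 9628, Eif1 at 6342 and Eif3h at 4916.

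Within eIF3 the levels were uneven by gene length and closer by transcript length. By gene length the subunits other than the loosely bound Eif3j1 and Eif3j2 lay between 636 per kb for Eif3d and 3949 for Eif3h. By transcript length the same subunits ran from 1497 for Eif3g to 4916 for Eif3h, and Eif3e moved from 801 to 3573 per kb. Eif3j1 had 280 per kb and Eif3j2 had 89.9, and these were the lowest of the 14 by both lengths. By gene length the 3 eIF2 subunits lay close together, with Eif2s1 (the subunit that the kinases phosphorylate) at 445, Eif2s2 at 453 and Eif2s3x at 728 per kb, while by transcript length Eif2s2 was highest at 1203. By gene length the eIF2B exchange factor ranged from 83.0 for Eif2b3 to 690 for Eif2b5, its catalytic subunit. The eIF2 kinases were low, from 118 for Eif2ak4 (GCN2, which senses uncharged tRNA) to 185 for Eif2ak1 (HRI, which senses lack of heme). By gene length the lowest members of the other groups were Eif1b at 518, Eif4enif1 at 238 and Eif5a2 at 97.9 per kb, and by transcript length Eif1ax, at 534, was below Eif1b.

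**Figure D1:**
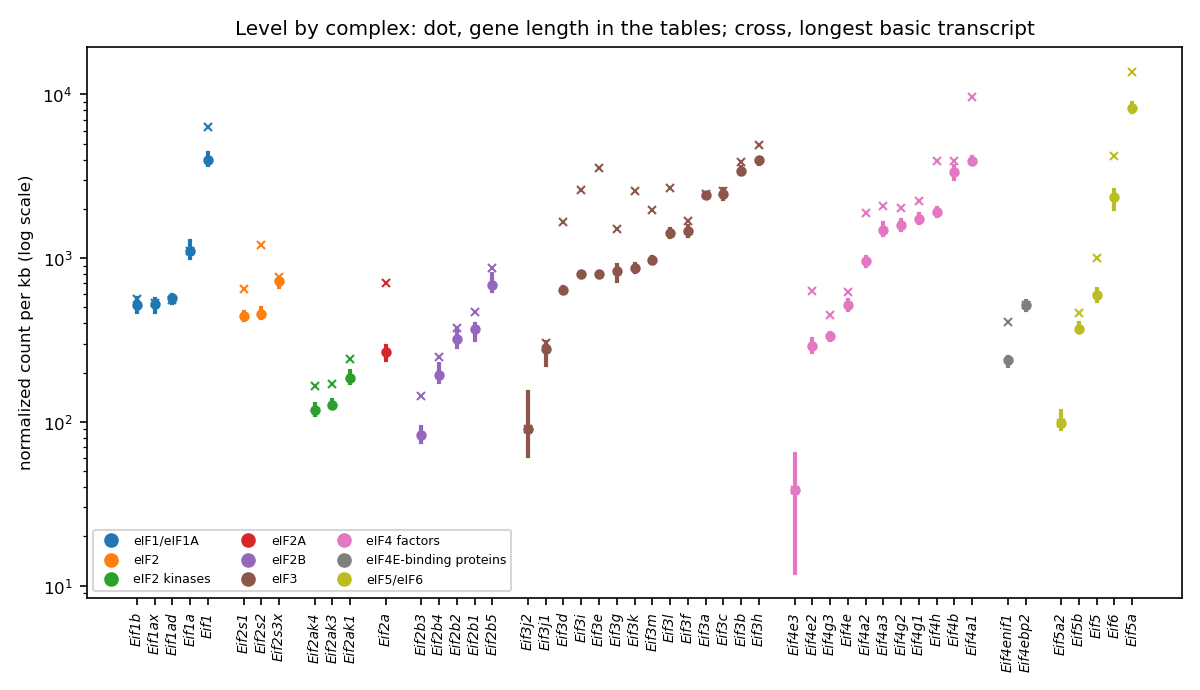
Normalized count per kb (log scale) for each of the 49 genes, by complex. Dots use the gene length in the tables with bars from the lowest to the highest of 8 samples, and crosses use the longest basic transcript. Eif5a is highest and Eif4e3 lowest by both lengths, and the bars of most genes are shorter than the distance between dot and cross.

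Most paralogs shared their families unequally. Eif4e held 55.6% to 61.3% of the summed normalized counts of the eIF4E family, Eif4e2 held 36.7% to 42.8%, and Eif4e3 held 0.538% to 2.94%. Of the summed Eif4a1, Eif4a2 and Eif4a3 helicases, Eif4a1 held 66.8% to 67.9% and Eif4a3 11.9% to 13.1%. Among the scaffolds, Eif4g2 held 48.3% to 52.6% and Eif4g1 36.6% to 40.3%. Eif5a held 97.1% to 97.8% of its pair with Eif5a2. Eif1 held 92.9% to 94.0% of its pair with Eif1b. Eif3j1 held 78.3% to 92.4% of its pair with Eif3j2. Eif1a and Eif1ax were near equal, with Eif1a at 49.6% to 51.7% of the pair in untreated samples and at 55.2% to 57.5% with IFNγ, without overlap. Where copies are near-identical, their reads may have been divided by the counting, and the processed pseudogene Eif4a-ps4 was itself listed at 2722 to 2962.

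The first question was whether loss of DENR altered the mRNA of the initiation machinery. Untreated, none of the 49 genes was called, at an adjusted p under 0.05 with limma, against 0.579% of the 13998 genes tested. An unadjusted p under 0.05 was reached by 3 of 49 members (Eif1, Eif4e3 and Eif5b), or 6.12%, beside 9.25% of all genes. The median log2 ratio of DENR KO to control was -0.01 over the members and 0.00 over all genes, with 29 members below 0 and 20 above. The summed normalized counts of all 49 genes were 235425 and 229400 in controls and 231403 and 228035 in DENR KO cells, so that the groups overlapped and the DENR KO mean was 98.8% of control. In bulk RNA, fewer cells that express a gene and less of its RNA per cell cannot be told apart.

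The size of any difference between these samples was narrowly bounded for most members, though the samples may not be independent clones or cultures. The 95% limma interval of the log2 fold change lay inside ±0.5 for 47 of 49 members and inside ±0.25 for 36. The exceptions at ±0.5 were Eif4e3 and Eif3j2. Both DENR KO samples lay above both controls for 6 members (12.2%, beside 20.4% of all genes) and below them for 14 (28.6%, beside 19.6%).

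With IFNγ, again none of the 49 was called with limma, against 4.06% of the 13928 genes tested. An unadjusted p under 0.05 was reached by 3 members (Eif3c, Eif5a2 and Eif4b), or 6.12%, beside 13.4% of all genes. The median log2 fold change was -0.02 over the members, with 30 below 0, and 0.00 over all genes. The median size of the fold change regardless of sign was 0.05 for members and 0.10 for all genes, which have a lower median level. The summed normalized counts were 229064 and 229835 in controls and 223798 and 226496 in DENR KO cells, without overlap and at 98.1% of control. The interval lay inside ±0.5 for 48 of 49, all but Eif3j2, and inside ±0.25 for 42. Both DENR KO samples were above both controls for 8 members (16.3%, beside 21.1% of all genes) and below for 9 (18.4%, beside 20.8%). Eif1ad, Eif2ak4 and Eif4e3 were above control without overlap in both tables, and Eif2s2, Eif3c and Eif3l below. The share of all genes doing so in both tables is not given here, so these lists show no excess.

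The count tests on the recovered reads also called none of the members in either table or in the difference between tables. Over all genes edgeR called 0.292% untreated, 3.46% with IFNγ and 0.321% for the difference, and DESeq2 called 0.453%, 2.87% and 0.589%. The replicate numbers of the labels, used as a block in the IFNγ table, raised the members called from 0 to 6 of 49. Over all genes the same block raised the calls from 565 to 1455 of 13928, which is described with the other alternatives.

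**Figure D2:**
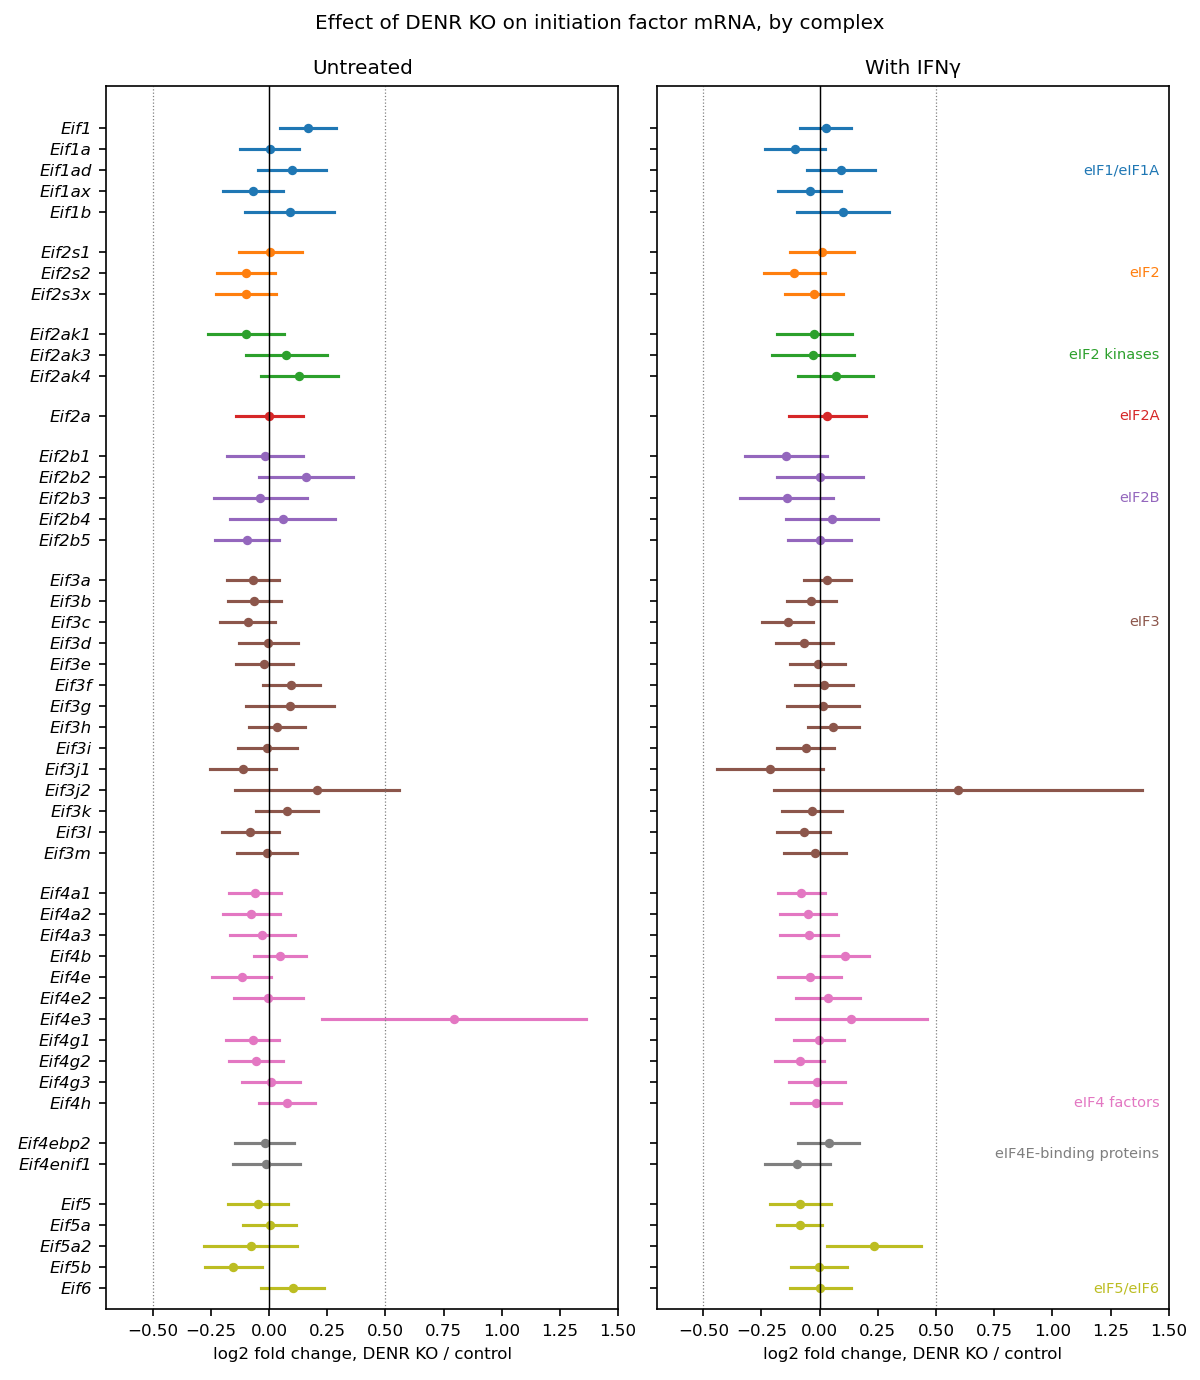
Log2 ratio of DENR KO to control for each gene, untreated on the left and with IFNγ on the right. Points are limma estimates from 2 samples per group, bars are 95% intervals, dotted lines mark ±0.5, and colours mark the complexes. Intervals that reach past a dotted line belong to Eif4e3 and Eif3j2 untreated and to Eif3j2 with IFNγ.

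The eIF1/eIF1A group, which includes the factors that guard the start codon, comes first. Eif1 was 8409 and 7775 in untreated controls and 9215 and 8941 in untreated DENR KO cells. Both DENR KO values were thus the higher, by 0.17 on the log2 scale (95% interval 0.05 to 0.29; limma, unadjusted p = 0.0078, adjusted p = 0.30). With IFNγ the groups overlapped, at 7894 and 8330 in controls and 8197 and 8315 in DENR KO cells. Eif1b differed by 0.09 untreated and 0.10 with IFNγ, and Eif1ad, Eif1a and Eif1ax lay between -0.11 and 0.10 in both tables. The X-linked Eif1ax had the lowest value of this group untreated (-0.07) and Eif1a with IFNγ (-0.11).

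The tRNA carrier eIF2 summed to 95.3% of control untreated and 96.8% with IFNγ. Eif2s2, its beta subunit, was lower in both DENR KO samples of each table. It was 3153 and 3149 in untreated controls against 2978 and 2909, and with IFNγ 3038 and 3330.5 against 2897 and 3005. The log2 fold changes were -0.10 (-0.22 to 0.03; limma, adjusted p = 0.65) and -0.11 (-0.24 to 0.02; adjusted p = 0.49). Eif2s3x, the gamma subunit that binds the tRNA and GTP, differed by -0.10 untreated and -0.02 with IFNγ. Eif2s1 was 0.00 and 0.01.

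The 3 eIF2 kinases among the members, which leave out Eif2ak2, were within 0.13 of 0. Eif2ak4 had the highest value in both tables (0.13 untreated, 0.07 with IFNγ), with DENR KO samples at 905 and 956 against 851 and 849 untreated and at 894 and 871 against 823 and 861 with IFNγ. These pairs did not overlap, but the limma intervals covered 0 (-0.04 to 0.30 and -0.09 to 0.23). Eif2ak1 was lowest untreated (-0.10), and Eif2ak3, the endoplasmic reticulum kinase PERK, was lowest with IFNγ (-0.03). Eif2a, a separate tRNA-binding factor that is not a subunit of eIF2, was at 0.00 and 0.03. The eIF2B subunits ranged from -0.10 (Eif2b5) to 0.16 (Eif2b2) untreated and from -0.14 (Eif2b1) to 0.05 (Eif2b4) with IFNγ, and summed to 98.0% and 97.2% of control. The untreated values of Eif2b2 and Eif2b5 were 0.31 and -0.01 without replicate 1 of the controls and 0.01 and -0.18 without replicate 2.

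The 14 eIF3 genes summed to 97.8% of control untreated and 98.2% with IFNγ, with 9 below 0 in each table. Eif3c, a core scaffold subunit, was 8787 and 9293 in controls with IFNγ and 8095 and 8351 in DENR KO cells, where both values were lower. Its log2 fold change of -0.14 (-0.25 to -0.03) had the smallest p of the members in that table (limma, unadjusted p = 0.017, adjusted p = 0.21). Untreated it was 8809 and 9131 against 8606 and 8218, a log2 fold change of -0.09 (-0.21 to 0.02). Eif3a, the largest subunit, was below control in both DENR KO samples untreated (12162 and 12633 against 12983 and 13017) and above it with IFNγ (12785 and 12459 against 12407 and 12268).

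In the paralogs of the eIF3j subunit, 1 DENR KO sample stood apart from the other. Eif3j2 was 165 and 194 in controls with IFNγ, and 360 and 203 in DENR KO cells. That sample, replicate 1, therefore carried most of the log2 fold change of 0.59 (-0.20 to 1.38; limma, adjusted p = 0.52). In that same sample Eif3j1 was at its lowest of 8, 1297, while the other DENR KO sample had 1649 and the controls 1631 and 1764. Untreated, Eif3j2 was 223 and 147 in controls and 200 and 218 in DENR KO cells, and Eif3j1 was 1696 and 1798 against 1636 and 1595. The sum of the paralogs in the sample with the high Eif3j2 was 1657, the lowest of 8, and the other samples had 1796 to 1958. Eif3j2 rested on 366 reads in that sample (exact Poisson 95% interval 329 to 405, counting error only) and on 144 to 222 in the other 7. How reads of these copies were divided was not tested. Without replicate 1 of the DENR KO cells with IFNγ, the log2 fold changes were 0.18 for Eif3j2 and -0.04 for Eif3j1, and neither was called with limma. Without replicate 2 of the DENR KO cells with IFNγ, both genes passed the threshold, with log2 fold changes of 1.004 for Eif3j2 (limma, adjusted p = 1.0e-06) and -0.39 for Eif3j1 (adjusted p = 0.0018), where the lone remaining sample is assumed to vary like the controls. Without replicate 2 of the controls, Eif3j2 alone passed, at 0.71 (limma, adjusted p = 0.016).

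The 11 eIF4 factors summed to 98.3% of control untreated and 98.5% with IFNγ. Eif4b, which stimulates the helicase, was 14168 and 13525 in controls with IFNγ and 15102 and 14749 in DENR KO cells, so that the groups did not overlap (log2 fold change 0.11, interval 0.01 to 0.21; limma, adjusted p = 0.33). Untreated it was 15795 and 15278 against 15772 and 16292, which overlap. Eif4e, the cap-binding protein itself, had the lowest log2 fold change of this group untreated, -0.12 (-0.25 to 0.01). It was 3181 and 3289 in controls and 3047 and 2914 in DENR KO cells. With IFNγ the 4 values of Eif4e ran from 2947 to 3333 and overlapped. Eif4g2, a scaffold that does not bind the cap protein, was lowest with IFNγ at -0.09 (-0.19 to 0.02). Of the eIF4E-binding proteins, Eif4ebp2 and Eif4enif1 lay between -0.10 and 0.04 in both tables.

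Eif4e3 had the highest log2 fold change of all 49 genes untreated. It was 30.2 and 37.8 in untreated controls and 68.7 and 51.1 in untreated DENR KO cells, so that the groups did not overlap. The log2 fold change was 0.79 (0.23 to 1.36), with an unadjusted p of 0.0079 and an adjusted p of 0.30 by limma, and it was not called. With IFNγ it was 145 and 132 in controls and 146 and 159 in DENR KO cells, for a difference of 0.14 on the log2 scale (-0.19 to 0.46; adjusted p = 0.80). The gene spans chr6:99625135-99666771 on the minus strand of GRCm38. It rested on few reads, 30 and 37 in untreated controls (exact Poisson 95% intervals 20.2 to 42.8 and 26.1 to 51.0) and 70 and 52 in untreated DENR KO cells (54.6 to 88.4 and 38.8 to 68.2). The counting interval of replicate 2 of the DENR KO cells overlaps those of both controls. The locus Gm20696, listed within its span, had at most 1.97 normalized counts.

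Among the factors of subunit joining, Eif5b, the GTPase that unites the subunits, was 3815 and 3905 in untreated controls and 3437 and 3498 in untreated DENR KO cells. Both DENR KO values were lower, with a log2 fold change of -0.15 (-0.28 to -0.03; limma, unadjusted p = 0.016, adjusted p = 0.39). With IFNγ it was at 0.00. Eif6, which holds the large subunit apart until it is needed, had the highest value of this group untreated (0.10, with overlapping samples) and was at 0.00 with IFNγ. Eif5a was 20977 and 20435 in controls with IFNγ and 19490 and 19509 in DENR KO cells (-0.09, interval -0.18 to 0.01), and it was at 0.00 untreated. Its paralog Eif5a2 was 505 and 484 in untreated controls and 467 and 469 in DENR KO cells, but 472 and 452 in controls with IFNγ and 505 and 585 in DENR KO cells. It was therefore below control in both untreated DENR KO samples (-0.08, interval -0.28 to 0.12) and above in both with IFNγ (0.23, interval 0.03 to 0.44; limma, adjusted p = 0.27).

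**Figure D3:**
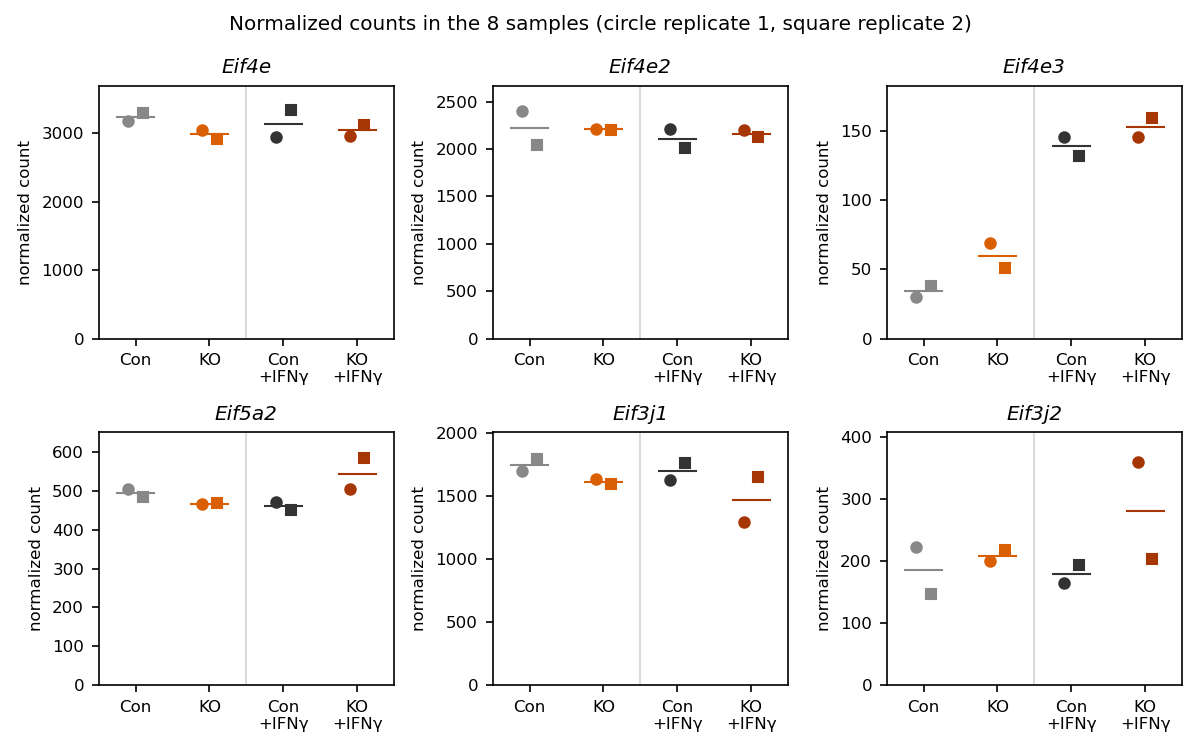
Normalized counts of 6 genes in the 8 samples, with a linear axis from 0 in each panel; circles are replicate 1, squares replicate 2 and lines the mean of 2 samples. Eif4e and Eif4e2 stay near their level in all groups, Eif4e3 runs from 30.2 to 159, and 1 DENR KO sample with IFNγ is high for Eif3j2 at 360 and low for Eif3j1 at 1297.

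Whether the effect of DENR KO differed between the treatments was tested as an interaction over the 8 samples. None of the 49 members was called, against 0.45% of the 13998 genes tested. An unadjusted p under 0.05 was reached by Eif5a2 (difference 0.31 on the log2 scale, interval 0.03 to 0.59; limma, adjusted p = 0.75) and Eif4e3 (-0.66, interval -1.27 to -0.05; adjusted p = 0.79), which is 4.08% of the members beside 5.74% of all genes. The median difference was -0.01 over the members and 0.00 over all genes. Of the members, 46 had an interval inside ±0.5 and 26 inside ±0.25.

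The second question was how IFNγ bears on the same genes. The tables were scaled separately by the authors, so the ratio of IFNγ to untreated is a description without a test. Over all 13998 genes its median on the log2 scale was -0.08 in controls and -0.08 in DENR KO cells, and over the members it was -0.02 and -0.03. With 1 scaling over the 8 samples the medians of all genes were 0.00 and -0.01 and those of the members 0.05 and 0.04. A log2 ratio beyond 1 in either direction was seen for 1 of 49 members in each genotype, beside 4.38% of all genes in controls and 3.07% in DENR KO cells.

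That member was Eif4e3. Its mean in controls was 34.0 ± 5.36 (SD, n = 2) untreated and 139 ± 9.62 with IFNγ, 4.08 times the untreated level. In DENR KO cells it was 59.9 ± 12.4 and 152 ± 9.58, which is 2.55 times. All 4 values with IFNγ lay above all 4 untreated values. The log2 ratios were 1.998 and 1.33, and 2.07 and 1.405 with 1 scaling. In controls 178 of the 13998 genes had a higher ratio. Among the other cap-binding paralogs, Eif4e had log2 ratios of -0.04 in controls and 0.03 in DENR KO cells and Eif4e2 had -0.07 and -0.03.

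The other 48 members lay between -0.20 (Eif2b5) and 0.28 (Eif1a) in controls and between -0.24 (Eif2b2) and 0.43 (Eif3j2) in DENR KO cells. Eif1a was 2881 and 2955 in untreated controls and 3413 and 3655 with IFNγ, and 2941 and 2908 against 3148 and 3419 in DENR KO cells. It was thus higher in every IFNγ sample, with log2 ratios of 0.28 and 0.17. Eif6, Eif5a, Eif3k and Eif2b3 followed in controls with 0.19, 0.11, 0.10 and 0.07, and they had 0.09, 0.02, -0.01 and -0.04 in DENR KO cells. With 1 scaling Eif3k and Eif2b3 were instead at 0.06 and 0.03 in DENR KO cells. At the other end, after Eif2b5, stood Eif4b (-0.17), Eif5b (-0.14), Eif4ebp2 (-0.14) and Eif2b4 (-0.13) in controls, with 0.01 for Eif5b and -0.10, -0.08 and -0.12 for Eif4b, Eif4ebp2 and Eif2b4 in DENR KO cells. Eif2b5 was 2553 and 2272 untreated and 2157 and 2033 with IFNγ in controls, and its log2 ratio in DENR KO cells was -0.11.

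Samples with IFNγ lay above both untreated samples for 5 members in controls (10.2%, beside 16.6% of all genes) and for 6 in DENR KO cells (12.2%, beside 15.6%). They lay below for 11 in controls (22.4%, beside 39.7%) and for 14 in DENR KO cells (28.6%, beside 40.8%). These counts depend on the scaling. With 1 scaling over the 8 samples, 19 of 49 members lay above in controls, beside 25.4% of all genes. In DENR KO cells 18 of 49 lay above, beside 24.5% of all genes. Below lay 3 of 49 in controls, beside 26.3% of all genes, and 4 of 49 in DENR KO cells, beside 25.3% of all genes. Eif1a, Eif2s3x and Eif4e3 were above without overlap in both genotypes with either scaling. With 1 scaling, 11 members were above in both genotypes, these genes among them. The share of all genes without overlap in both genotypes is not given here. Eif2b5, Eif4b and Eif4g3 were below in both with the separate scalings, but no member was with 1 scaling, and the log2 ratio of Eif4g3 in controls turned from -0.06 to 0.02.

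**Figure D4:**
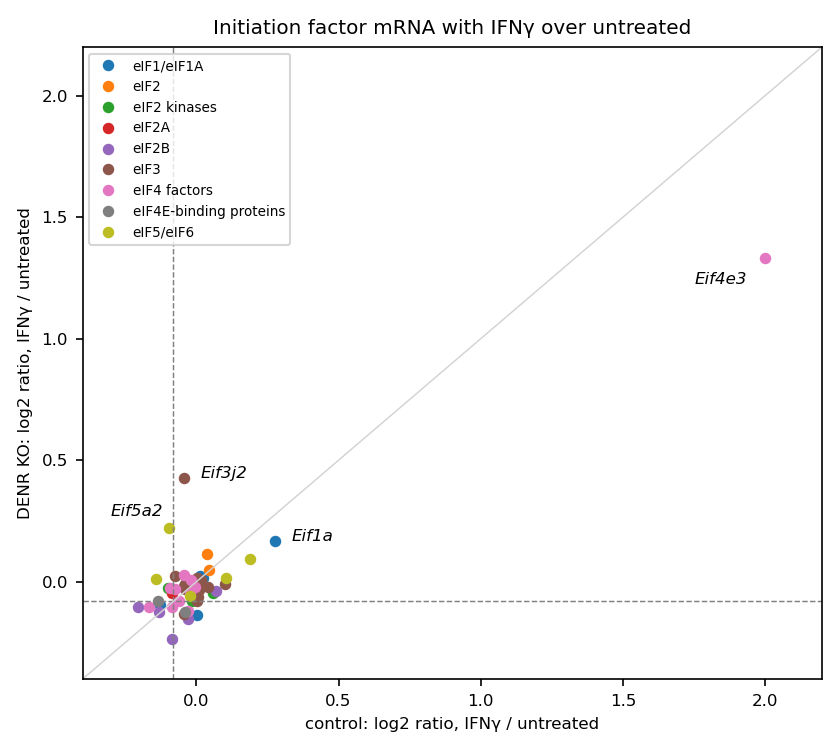
Log2 ratio of IFNγ to untreated for each gene in control cells (x axis) and DENR KO cells (y axis), from means of 2 samples. Dashed lines are the medians of all genes (-0.08 on each axis) and the grey line marks equal ratios. Eif4e3 stands apart at 1.998 and 1.33, and the other 48 genes lie within -0.24 to 0.43.

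The neighbours of the initiation factors in translation were read from the same fits. Of the 4 reinitiation factors (Denr, Mcts1, Mcts2 and Eif2d, which can act in place of the DENR complex), Denr alone was called lower in each table. The median log2 fold change of the 4, Denr included, was -0.24 with IFNγ, with 3 below 0. Untreated it was -0.05, with 2 below 0. Eif2d was 752 and 703 in untreated controls against 738 and 744, and 658 and 645 with IFNγ against 702 and 700 (log2 fold change 0.11 ± 0.08, SE; limma, adjusted p = 0.68). Eif2ak2, the interferon-induced eIF2 kinase PKR, was 839 and 963 in untreated controls and 1643 and 1685 with IFNγ. In DENR KO cells with IFNγ it was lower, at 1333 and 1362 (-0.30 ± 0.07; limma, adjusted p = 0.0075), and untreated it was at -0.18 ± 0.09 (adjusted p = 0.54). The PKR call was lost without replicate 1 of the DENR KO cells with IFNγ (limma, adjusted p = 0.058). The inhibitor Eif4ebp1 was at 0.06 untreated and -0.03 with IFNγ.

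None of the 14 cap and poly(A) partners, 17 measured genes of signalling to initiation (the mTOR, MNK and eIF2 phosphatase genes among them) and 10 elongation and termination factors was called in any of the 3 fits. Their median log2 fold changes were 0.00, -0.05 and 0.02 untreated and -0.01, -0.01 and -0.05 with IFNγ. Of 20 targets of the integrated stress response, 3 were called lower with IFNγ, none higher and none untreated, beside 2.25% of all genes called lower with IFNγ and 0.15% untreated. None of the 20 was called for the difference between treatments. The median of the 20 was -0.10 with IFNγ and -0.05 untreated. Atf3, a stress-induced transcription factor, was 345 and 397 in controls with IFNγ and 259 and 230 in DENR KO cells (-0.60 ± 0.12; limma, adjusted p = 0.0026). Untreated it was 172 and 172 against 154 and 143 (-0.21 ± 0.15; limma, adjusted p = 0.72). Cebpb, a transcription factor of the inflammatory response, was 2995 and 3379 against 2759 and 2619 (-0.24 ± 0.07; limma, adjusted p = 0.036). Untreated it was 1642 and 1725 against 1657 and 1732 (0.01 ± 0.07; limma, adjusted p = 0.98). In controls the mean with IFNγ was 2.15 times the untreated mean for Atf3 and 1.89 times for Cebpb. Whether their lower level reflects the stress response or the response to IFNγ was not tested. Psat1, an enzyme of serine synthesis, was 7639 and 7774 against 6555 and 6913 (-0.20 ± 0.05; limma, adjusted p = 0.039). Untreated it was also lower, at 7305 and 7445 against 6570 and 6522 (-0.17 ± 0.06; limma, unadjusted p = 0.0052, adjusted p = 0.25). The difference of its effect between treatments was -0.02. The calls of Cebpb and Psat1 were lost with edgeR (adjusted p = 0.054 and 0.066), and that of Cebpb with DESeq2 (0.066). With limma, Psat1 was lost without any 1 of the 4 samples (adjusted p from 0.053 to 0.45), and Cebpb without replicate 2 of the controls (0.48) or of the DENR KO cells (0.19). Atf3 was called in every alternative run.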

How the data were processed

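RNA of 8 MC38 samples was sequenced, and the authors deposited 2 tables, 1 per treatment. The deposited unit is a normalized signal: read counts divided by 1 size factor per sample. Submitters' processing notes name HISAT2 2.0.5, StringTie 1.3.3b, featureCounts 1.5.0-p3, DESeq2 1.20.0 and the build mm9. The coordinates are, however, those of GRCm38: 19067 of 20071 shared gene IDs had the GENCODE M21 position, and 45 of 49 members. Strand handling is not given in the sources used here. The deposited gene length (other) joins exons. Columns of the authors' comparison (log2 fold changes, p-values) were not used.

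All values (100%, tolerance 0.01) were whole reads after rescaling. Because the unit was not raw counts, limma 3.58.1 (R 4.3.3; trend, robust) was run on log2(value + 1), which understates changes of low genes, for genes averaging at least 10, with Benjamini-Hochberg adjustment over all genes tested. edgeR 4.0.16 and DESeq2 1.42.0 on recovered reads were alternatives. The script was tested on simulated data.

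The members and lists were chosen with earlier results of these data known. Named genes were members called in any fit, the highest and lowest log2 fold change per complex and table, the 5 highest and 5 lowest IFNγ ratios in controls with a mean of at least 100, the highest and lowest level per complex, and Denr. Others were named after their values were seen. Another promoter feature that was searched is not reported here.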

Additional observations from a re-analysis of the deposited data

Results flagged for a closer look

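The effect of DENR KO on Eif5a2 and on Eif3a had opposite directions in the 2 treatments in every sample, below both controls untreated and above both with IFNγ. The share of all genes that turned in this way is not given here. The difference of the effect was 0.31 on the log2 scale for Eif5a2 (limma interaction, unadjusted p = 0.030, adjusted p = 0.75) and 0.10 for Eif3a (unadjusted p = 0.15, adjusted p = 0.99), and neither passed the threshold.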

How the results depend on the processing

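With 2 samples per group, the precision is that of the intervals given above, and Eif4e3 is further limited by its reads. Of 49 members, none was called in any of the 3 fits with a pseudocount of 5, without a filter, with a mean of at least 100, with median centring, with edgeR or with DESeq2, nor in either table in a fit of all 8 samples. Leaving out 1 sample gave 0 to 2 members called with IFNγ (Eif3j1 and Eif3j2), 0 untreated and 0 for the difference. With the replicate block, 6 were called with IFNγ (Eif3c, Eif3j1, Eif4a1, Eif4b, Eif4g2 and Eif5a), 0 untreated and 0 for the difference. Over all genes the block raised the calls from 565 to 1455 of 13928 with IFNγ and from 81 to 257 of 13998 untreated. Deviations of same-numbered samples correlated at 0.22 with IFNγ and -0.02 untreated over 10415 genes. The labels do not say whether a number marks a shared culture, so whether the numbers pair samples is not known.

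The members' median IFNγ ratio, -0.023 in controls and -0.027 in DENR KO cells, became 0.055 and 0.045 with 1 scaling, and ranged from -0.040 to 0.0061 and from -0.051 to -0.0026 without 1 sample. The median level was 636 per kb by gene length and 1004 by transcript length, an alternative chosen after seeing the data, as was leaving out samples from the IFNγ ratios. With 1 scaling the IFNγ ratio turned from below to above 0 for 18 of 49 members in controls and 17 in DENR KO cells, from at most 0.08 below 0, and the members without overlap went from 5 to 19 above and from 11 to 3 below in controls and from 6 to 18 and 14 to 4 in DENR KO cells. Among the log2 fold changes of DENR KO for named genes, median centring turned Eif2s1 with IFNγ (-0.00039) and untreated (-0.023). Without 1 sample, the values that turned ranged from -0.051 to 0.071 for Eif2s1 and from -0.11 to 0.053 for Eif2ak3 with IFNγ, and untreated from -0.053 to 0.062 for Eif2s1, from -0.096 to 0.50 for Eif3j2 and from -0.0075 to 0.21 for Eif6. The causes were not tested.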
